A study of Mus musculus with 17 samples.

Results

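The hippocampus of 24-month-old mice (24M group) was compared with that of 3-month-old mice (3M group) across all genes, using the single-end RNA libraries of the series. These are 11 of the 17 libraries, 5 at 3M and 6 at 24M, chosen by their age and library type. All mice in both groups were untreated C57BL/6J wild types, the hippocampus was dissected as a whole, and polyA RNA was sequenced. The labels name samples and do not say how each relates to an animal, so p-values measure the spread between these samples, which may be technical in part. 24M replicates 1 and 4 differed by less than counting noise (the variance between them was 0.406 of what counting alone gives, and that of the next closest pair of libraries was 1.28). Their rounded mean was used as 1 sample, which leaves 5 samples at each age.

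The hippocampus is a memory structure built of pyramidal and granule neurons, interneurons, astrocytes, oligodendrocytes and their precursors, microglia and vessels. Its dentate gyrus is among the few places where neurons are still born in adult mice, and microglia and astrocytes are known to take up reactive states with age. The comparison asks which genes and functions differ at an advanced age. Because whole tissue was sequenced, fewer cells of a type and less RNA per cell cannot be told apart.

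Between 19144461 and 28438296 counts on genes were deposited per 3M library (median 20289215) and between 9213474 and 19756411 per 24M library (median 14363897). A gene was called if its Benjamini-Hochberg adjusted p in edgeR's quasi-likelihood test was 0.05 or less and its log2 fold change 0.5 or more in size. By this rule 310 of 15683 tested genes (1.98%) changed at 24M, of which 210 (1.34% of those tested) rose and 100 (0.638%) fell. By the adjusted p alone 504 (3.21%) were higher and 371 (2.37%) lower. These calls were mostly modest in size, since 62 of the genes that rose and 22 of those that fell changed at least 2-fold. They were also low in level, with a median of 5.55 CPM (counts scaled to a common library total) for genes that rose and 6.97 for genes that fell, against 20.8 over all tested genes. The 24M samples all lay above the 3M samples for 154 of the 210 genes, and all below for 77 of the 100, against 3.15% and 3.42% of all tested genes. The calls were made from these same samples, so this lack of overlap is no separate evidence for them. Single libraries moved the counts. Without 24M replicate 2, 91 genes rose and 28 fell, and without 3M replicate 5, 394 rose and 174 fell. Without 3M replicate 1, 119 genes rose. The number that fell was 52 with 3M replicate 4 left out and 46 with 24M replicate 3 left out.

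**Figure D1:**
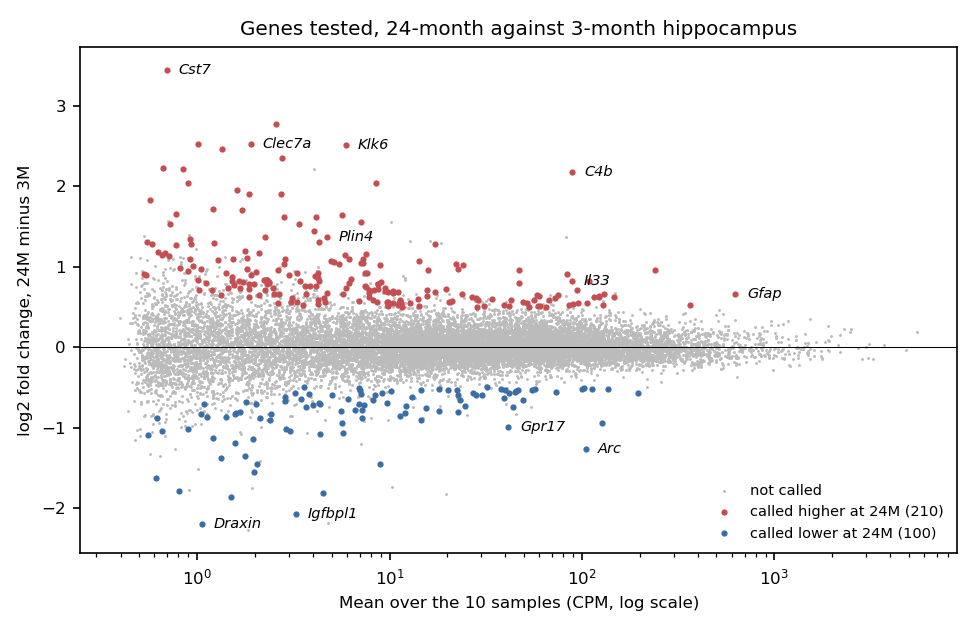
log2 fold change (24M minus 3M) of each of the 15683 tested genes against its mean over the 10 samples in CPM on a log axis. Red points are the 210 genes called higher at 24M and blue points the 100 called lower, and most of both lie at low levels, with Gfap, C4b and Il33 among the exceptions.

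A feature of the libraries has to be read beside every result that follows. The median gene whose transcript is poor in G and C was higher at 24M and the median GC-rich gene lower. Genes were put into 5 bins of equal size by GC content. In the lowest bin the median log2 fold change was 0.16 (79 genes rose and 10 fell). In the highest bin it was -0.10 (19 rose and 40 fell). The same gradient separated samples of 1 age. Against the 3M mean, the lowest bin stood at 0.24 in 24M replicate 3 and at 0.06 in 24M replicate 5, at 0.15 in 3M replicate 5 and at -0.15 in 3M replicate 1. Offsets for GC content and transcript length were an alternative chosen after seeing the data. They are fitted to these trends in each sample, so by construction both bins came to 0.00 and -0.00. With the offsets 167 genes rose and 82 fell, of which 146 and 64 were among the calls above. Values with these offsets are given beside results below that they change. For every gene list below, the shares to compare with are the 1.34% of all tested genes called higher and the 0.638% called lower.

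**Figure D2:**
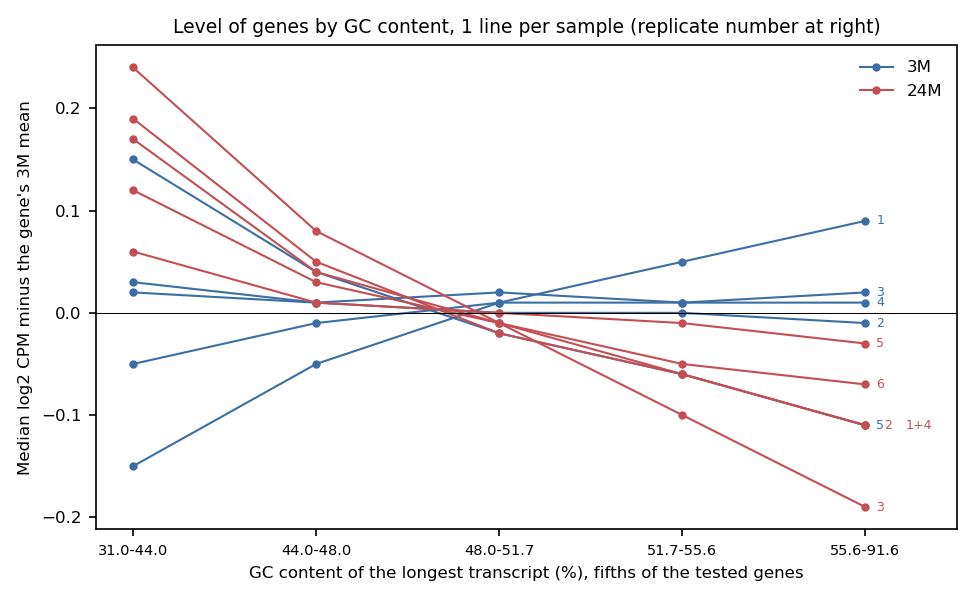
Median log2 CPM relative to each gene's 3M mean (vertical axis) in 5 equal bins of genes ordered by GC content in % (horizontal axis), with 1 line per sample, blue for 3M and red for 24M. All 24M samples slope downward, most steeply replicate 3 (0.24 to -0.19), and 3M replicate 5 slopes the same way (0.15 to -0.11) while 3M replicate 1 slopes upward (-0.15 to 0.09).

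Several genes of the microglial state seen around damaged or aged tissue rose. Of 26 disease-associated microglia genes, 8 rose, 0 fell and 24 lay above 0, with a median log2 fold change of 0.38. Of all tested genes 1.34% rose, and homeostatic microglia genes, given below, had a median of 0.32. The count of disease-associated genes stayed between 8 and 10 when any library was left out and was 9 with the GC offsets. Summed over these 26 genes, the level was 5240 to 5630 CPM at 3M and 5620 to 6280 CPM at 24M, so the sums overlapped. Clec7a, a receptor for fungal and other glucans, was at 0.409, 0.623, 0.389, 0.611 and 0.79 CPM in 3M replicates 1 to 5, and at 4.45, 4.25, 3.04, 2.04 and 2.37 CPM in the 24M samples (the mean of replicates 1 and 4, then 2, 3, 5 and 6, the order used throughout). The groups did not overlap, and the log2 fold change was 2.53 (SE 0.28, adjusted p = 0.00031, edgeR). Cst7, an inhibitor of cysteine proteases, had the largest log2 fold change of the list, 3.44 (SE 0.42, adjusted p = 0.000845, edgeR), from at most 0.26 CPM in any 3M sample to 0.979 to 1.67 CPM at 24M. DESeq2 gave it no adjusted p.

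Trem2, a lipid-sensing receptor on microglia, was at 12.5, 12.2, 11.9, 13 and 11.6 CPM at 3M and at 20.4, 21.9, 15.8, 18.7 and 18.5 CPM at 24M. The 3M samples averaged 12.2 ± 0.564 CPM (SD, n = 5), and every 24M sample lay above them (log2 fold change 0.64, SE 0.09, adjusted p = 0.0023, edgeR). Gpnmb, a membrane glycoprotein of phagocytes, rose by 0.68 (SE 0.08, adjusted p = 0.000524, edgeR). The lysosomal protease gene Ctss, abundant in microglia, stood at 48.2, 66.3, 55.3, 60.8 and 61.3 CPM at 3M and at 120, 119, 110, 96.1 and 101 CPM at 24M. It rose by 0.90 (SE 0.09, adjusted p = 0.000109, edgeR) and was the 1 gene called among 34 lysosome and autophagy genes, whose median was 0.06. These 5 genes kept their call in every fit that left out 1 library and with the GC offsets.

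Of 14 homeostatic microglia genes 13 lay above 0 (median 0.32) and 8 passed the adjusted p, of which 1, the ADP receptor gene P2ry12, reached the fold threshold, at 0.52 (SE 0.13, adjusted p = 0.0342, edgeR). Its call was lost without 3M replicate 1, 3 or 4 or 24M replicate 2, 3 or 6 (log2 fold changes from 0.45 to 0.53), and with the GC offsets its log2 fold change was 0.29. Summed over the 14 genes, the level was 474 to 541 CPM at 3M and 591 to 623 CPM at 24M, with no overlap.

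Receptors of innate immunity included several calls. Of 20 tested Fc and Toll-like receptor genes and related sensors, 6 rose and 0 fell (median 0.48), where 1.34% of all tested genes rose. Cd84, a receptor of the SLAM family, rose by 0.92 (SE 0.13, adjusted p = 0.00276, edgeR), from 2.27 to 3.38 CPM at 3M to 4.92 to 5.99 CPM at 24M, with its call kept without each library. Tlr13 and Tlr7, sensors of microbial RNA, rose by 0.89 and 0.67, and both calls were lost without 24M replicate 2 (0.86 and 0.65, adjusted p = 0.0563 and 0.0599, edgeR). The number of calls was 1 without that replicate, 4 without 3M replicate 1 or 4 or 24M replicate 3 or 6, 9 without 3M replicate 2 and 4 with the GC offsets.

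All 8 tested MHC class II genes lay above 0 (median 0.72) and H2-Aa and H2-DMb1 rose, by 1.07 (SE 0.25, adjusted p = 0.0287, edgeR) and 0.78 (SE 0.17, adjusted p = 0.022, edgeR). H2-Aa was at 3.14, 5.97, 2.15, 2.34 and 2.62 CPM at 3M and at 7.92, 6.6, 5.21, 7.86 and 6.13 CPM at 24M. 3M replicate 2 lay above 24M replicate 3, so the groups overlapped. H2-Aa was not called without 3M replicate 1, 3 or 4 or 24M replicate 2 (0.94 to 1.08) and H2-DMb1 not without 24M replicate 2 (0.79, adjusted p = 0.0614, edgeR). The list had 1 call without 3M replicate 1, 3 or 4 and 5 without 3M replicate 2, and leaving out 24M replicate 2 removed both calls.

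Of 18 MHC class I and peptide loading genes, 17 lay above 0 (median 0.33), and B2m, the light chain shared by class I molecules, was the 1 gene that rose (0.71, SE 0.15, adjusted p = 0.022, edgeR). 3M replicate 2 was high for the whole list, at 360 CPM summed, where the other 3M samples had 217 to 249 CPM and the 24M samples 291 to 405 CPM. Without it the median was 0.67 and 9 genes rose. B2m was not called without 3M replicate 1 (0.65) or 24M replicate 2 (0.62), which left 0 calls in the list. Class I and class II genes have close relatives in the same gene cluster, so their counts may be shared.

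Of 33 tested interferon-stimulated genes, 12 rose, 0 fell and 31 lay above 0 (median 0.57), where 1.34% of all tested genes rose. Trim30a, a regulator of innate signalling on chromosome 7 (GRCm38, 104409025 to 104465193), was at 2.05, 2.96, 1.38, 2.39 and 2.27 CPM at 3M and at 6.6, 7.81, 5.46, 5.54 and 4.19 CPM at 24M. Ifit3, which restrains translation of foreign RNA, was at 3.27, 4.83, 3.5, 3.92 and 2.62 CPM at 3M and at 10.1, 19.3, 6.24, 9.39 and 8.17 CPM at 24M. Neither gene's groups overlapped, and replicate 2 was the highest 24M sample in both. Trim30a rose by 1.45 (SE 0.20, adjusted p = 0.00236, edgeR) and Ifit3, whose reads can be shared with its copy Ifit3b, by 1.55 (SE 0.27, adjusted p = 0.00852, edgeR).

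Samd9l, an antiviral gene, rose by 1.10 (SE 0.15, adjusted p = 0.0023, edgeR) and Ifi27 by 0.64 (SE 0.13, adjusted p = 0.0172, edgeR). These 4 genes kept their calls without each library and with the GC offsets, but the list as a whole did not keep its count. It was 5 without 24M replicate 2 (median 0.37), 4 without 3M replicate 1, 5 without 3M replicate 3 or 4, and 10 with the GC offsets. Summed over the list, 24M replicate 2 held 610 CPM, the other 24M samples 318 to 426 CPM and the 3M samples 241 to 352 CPM. Zc3hav1, an antiviral RNA-binding protein outside the list, had little spread, with 7.98 to 9.91 CPM at 3M and 16.6 to 21.0 CPM at 24M (log2 fold change 1.07, SE 0.09, adjusted p = 2.98e-05, edgeR).

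Interferon-stimulated genes are known to carry an interferon-stimulated response element in their promoters. RefSeq windows from 250 bases before to 50 bases after the transcription start were found for 42 of the 54 interferon-stimulated and class I genes. The core motif, GAAA, any 2 bases and GAAA again, searched on both strands (TTTC, any 2 bases and TTTC on the other), was in 19 of the 42 (45.2%), and in 3.99% of the windows of all 27025 genes. Among the 9 called genes with a window it was in 6, which were B2m, Ifit1, Ifit3, Bst2, Trim30a and Ddx58. A match is a description of the sequence and not of binding. The 250 bases before the start are shown for the 2 of these 6 with the smallest p, 5′ to 3′ on the gene's strand (GRCm38.p6), with the core in capitals. For Trim30a (minus strand, chr7:104465194-104465443) it begins 36 bases before the start, and for Ifit3 (plus strand, chr19:34583279-34583528) it occurs at 156 and 122 bases before the start.
Trim30a: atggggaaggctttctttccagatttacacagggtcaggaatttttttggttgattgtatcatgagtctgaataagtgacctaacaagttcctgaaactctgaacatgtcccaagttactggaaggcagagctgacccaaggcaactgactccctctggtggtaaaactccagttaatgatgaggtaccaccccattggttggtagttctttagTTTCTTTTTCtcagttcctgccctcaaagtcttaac
Ifit3: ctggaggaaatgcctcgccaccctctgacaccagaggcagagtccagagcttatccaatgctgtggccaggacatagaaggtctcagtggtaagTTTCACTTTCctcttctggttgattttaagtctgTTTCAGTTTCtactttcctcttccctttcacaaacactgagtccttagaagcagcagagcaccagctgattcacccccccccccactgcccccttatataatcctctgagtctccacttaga

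Of 36 chemokine, cytokine and receptor genes 21 could be tested and 2 rose, a count that became 4 with 3M replicate 2 left out, 6 with 3M replicate 5 left out and 1 with 24M replicate 2 left out. Il33, an alarm cytokine held in nuclei of astrocytes and oligodendrocytes, was at 63.5, 63.3, 53.7, 63.2 and 76.0 CPM at 3M and at 116, 116, 117, 102 and 114 CPM at 24M. It rose by 0.83 (SE 0.08, adjusted p = 0.000109, edgeR), without overlap, and kept its call without each library and with the GC offsets. Cxcl16 rose by 0.80 (SE 0.18, adjusted p = 0.0279, edgeR), a call that was lost without 3M replicate 1 or 4 or 24M replicate 2 or 5 (0.70 to 0.86). Of 22 lymphocyte and blood leukocyte markers 3 had enough counts to be tested, and the T cell genes did not. The immunoglobulin genes Ighm and Igkc rose. Ighm went from 10.1 to 20.3 CPM at 3M to 28.1 to 31.5 CPM at 24M (0.97, SE 0.16, adjusted p = 0.00587, edgeR). Igkc was at 0.247 to 0.468 CPM at 3M and at 1.11, 4.55, 0.567, 2.49 and 2.69 CPM at 24M (2.46, SE 0.48, adjusted p = 0.0166, edgeR). Hemoglobin and red cell genes, a sign of blood, summed to 53.4 to 109 CPM at 3M and to 160, 547, 97.1, 136 and 76.4 CPM at 24M. Their part in these results was not tested. Of the complement genes, C4b, whose reads can be shared with its copy C4a, was at 20.9 to 46.3 CPM at 3M and at 132 to 156 CPM at 24M, and C3 at 1.45 to 5.04 CPM and 12.5 to 14.5 CPM.

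**Figure D3:**
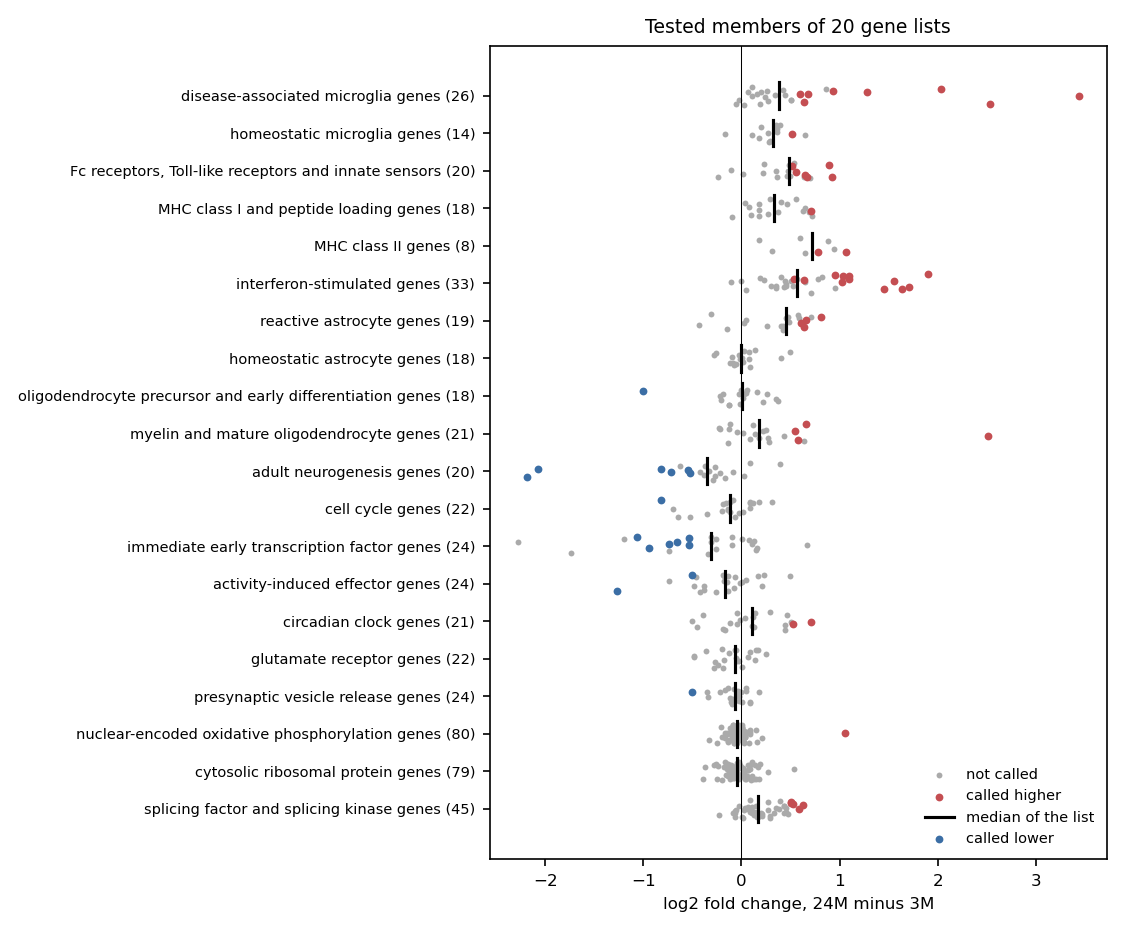
log2 fold change (24M minus 3M) of the tested members of 20 gene lists, with their number in parentheses, the median as a black bar, red points for genes called higher and blue points for genes called lower. Medians range from 0.72 for MHC class II genes to -0.35 for adult neurogenesis genes, and lie at -0.05 for oxidative phosphorylation and ribosomal protein genes.

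Of 19 reactive astrocyte genes 4 rose and 16 lay above 0 (median 0.45), where 1.34% of all tested genes rose. The count was 4 to 6 without each library (6 without 24M replicate 3) and 4 with the GC offsets. Gfap, an intermediate filament of astrocytes (chromosome 11, 102887336 to 102900912), was at 465, 494, 473, 437 and 553 CPM at 3M and at 766, 750, 740, 753 and 824 CPM at 24M. The lowest 24M sample lay above the highest 3M sample (log2 fold change 0.66, SE 0.06, adjusted p = 8.8e-05, edgeR). Vim, its filament partner, was at 54.3 to 61.0 CPM at 3M and at 76.3 to 93.6 CPM at 24M (0.61, SE 0.06, adjusted p = 0.000153, edgeR). Serpina3n, a secreted protease inhibitor, and Osmr, the oncostatin M receptor, rose by 0.64 and 0.81.

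Across 18 homeostatic astrocyte genes, which cover glutamate uptake, gap junctions and potassium and water transport, the median was -0.00 and 11 genes lay within 0.1 of 0. None was called by edgeR or DESeq2, and 6 had an unadjusted p under 0.05 in edgeR. Without 3M replicate 4 or 24M replicate 5, 1 was called, S100b (0.51 in both). S100b, a calcium-binding protein, passed the adjusted p at 0.49 (SE 0.05, adjusted p = 0.000172, edgeR), just under the fold threshold, from 94.4 to 102 CPM to 130 to 152 CPM. The water channel Aqp4 was at 0.40 (adjusted p = 0.0279, edgeR), and at 0.24 (adjusted p = 0.0625, edgeR) with the GC offsets.

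In the oligodendrocyte lineage Gpr17, a receptor of precursors on the point of differentiation (chromosome 18, 31942997 to 31949636), was at 59, 51.6, 61.2, 46.2 and 57.9 CPM at 3M and at 22.7, 30.8, 26.2, 28.3 and 30.7 CPM at 24M. All 24M samples lay below all 3M samples, with a mean of 55.2 ± 6.17 CPM at 3M and 27.8 ± 3.39 CPM at 24M (SD, n = 5 each), a 2-fold decrease (SE 0.09 on the log2 scale, adjusted p = 0.000109, edgeR). The call was kept without each library and with the GC offsets. It was the 1 call among 18 precursor and early differentiation genes, whose median was 0.01. The list's summed level was 1140 to 1210 CPM at 3M and 1120 to 1200 CPM at 24M.

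Of 21 myelin and mature oligodendrocyte genes 4 rose (median 0.18), where 1.34% of all tested genes did. Klk6, a protease of mature oligodendrocytes (chromosome 7, 43824499 to 43832030), was at 1.5, 1.19, 0.883, 3.87 and 1.43 CPM at 3M and at 9.24, 13.7, 8.25, 5.2 and 14.1 CPM at 24M. The groups did not overlap, and among called genes of at least 5 CPM without overlap it had the largest increase (2.51, SE 0.36, adjusted p = 0.00288, edgeR). Trf, the iron carrier transferrin, rose by 0.58 (not called without 3M replicate 3, 0.48, or 24M replicate 2, 0.58). Aspa and Hapln2 rose by 0.66 and 0.55, but their calls were lost in 6 and 7 of the 11 fits that left out a library, in both genes without 3M replicate 1, 2 or 3 and 24M replicate 2, 3 or 6 and for Hapln2 also without 24M replicate 5. In the list 1 gene rose without 3M replicate 3 or 24M replicate 2, and 2 did without 3M replicate 1 or 2 or 24M replicate 3 or 6. With the GC offsets 3 rose, and Aspa was at 0.44. The summed level varied between samples of 1 age, at 5050 to 8700 CPM at 3M and 7290 to 8500 CPM at 24M.

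Apod and Abca8a, which carry and export lipids and are not in the lists above, rose without overlap. Apod was at 139 to 191 CPM at 3M and 268 to 362 CPM at 24M (0.95, SE 0.10, adjusted p = 0.000222, edgeR), and Abca8a at 13.3 to 19.3 and 29.8 to 34.2 CPM (1.02, SE 0.09, adjusted p = 8.8e-05, edgeR).

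Several genes of newborn neurons fell. Of 20 tested adult neurogenesis genes 6 fell, 0 rose and 17 lay below 0 (median -0.35), where 0.638% of all tested genes fell. Draxin, an axon guidance protein, was at 2.05, 2.13, 1.52, 1.22 and 1.88 CPM at 3M and at 0.556, 0.379, 0.361, 0.339 and 0.215 CPM at 24M. Igfbpl1, a marker of neuroblasts (chromosome 4, 45809468 to 45826923), was at 4.91, 5.09, 2.93, 6.83 and 6.67 CPM at 3M and at 1.25, 0.683, 0.722, 1.81 and 1.94 CPM at 24M. For both, every 24M sample lay below every 3M sample. Draxin fell by 2.19 on the log2 scale (SE 0.26, adjusted p = 0.000524, edgeR) and Igfbpl1 by 2.07 (SE 0.30, adjusted p = 0.00304, edgeR).

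Sox4, a transcription factor of early neuronal differentiation, fell from 14.3 to 17.0 CPM to 6.39 to 10.2 CPM (-0.82, SE 0.12, adjusted p = 0.00359, edgeR). These 3 genes kept their calls without each library and with the GC offsets. Dcx, the microtubule protein of migrating neuroblasts, fell less (-0.54, SE 0.11, adjusted p = 0.0175, edgeR), from 21.2 to 30.2 CPM to 17.1 to 19.5 CPM, and was not called without 3M replicate 4 or 5 (-0.49 in both) or 24M replicate 2 (-0.52). With the GC offsets it fell by 0.70. The list had 3 calls without 24M replicate 2, 4 without 3M replicate 3 or 4 or 24M replicate 3, and 5 with the offsets. Neurod1, a factor of granule neuron differentiation, lay the other way at 0.39 (passing the adjusted p but not the fold threshold).

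Of 28 cell cycle genes 22 were tested, 15 lay below 0 (median -0.12), and Top2a, a topoisomerase of dividing cells, was the 1 call (-0.82, SE 0.22, adjusted p = 0.0434, edgeR). It lost the call in 7 of the 11 fits that left out a library, without 3M replicate 1, 2 or 4 or 24M replicate 2, 3, 4 or 5. With the GC offsets 2 genes of the list fell. Of 15 tested cell-cycle inhibitors and p53 targets none rose, and Bbc3, which promotes apoptosis, fell by 0.58 (SE 0.10, adjusted p = 0.011, edgeR), or by 0.41 with the GC offsets, below the fold threshold. Cdkn2a, a marker of senescence, had too few counts to be tested.

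**Figure D4:**
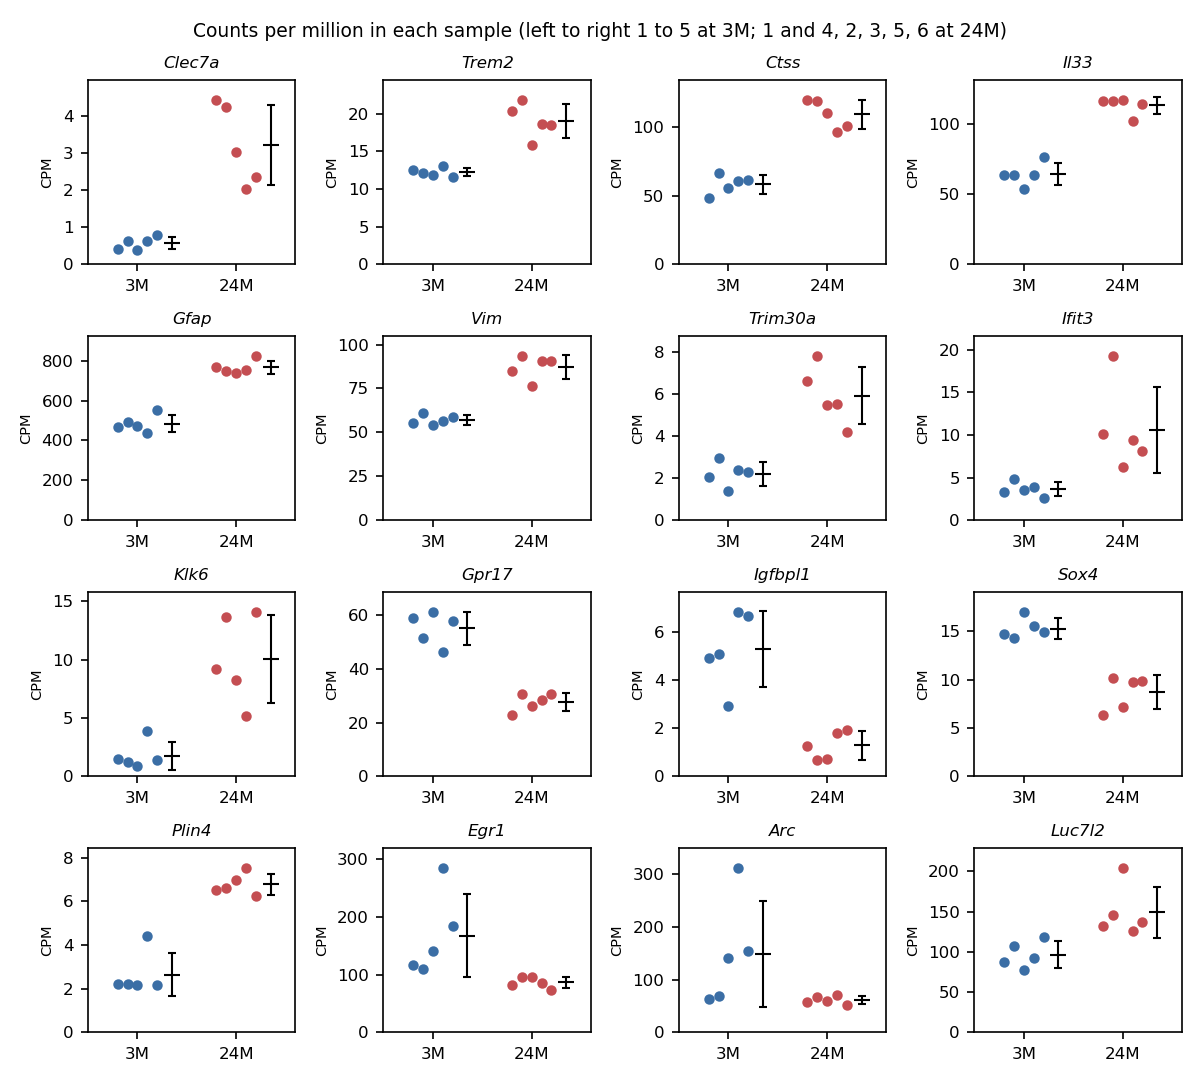
CPM of 16 genes in each sample (points, 5 per age, replicates in order from left to right) with the mean and SD at the right of each group, on linear axes from 0. The ages are separated for Clec7a, Trem2, Gfap, Gpr17 and Igfbpl1, while Arc overlaps and Egr1 spreads from 110 to 284 CPM at 3M against 72.7 to 96.3 CPM at 24M.

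Immediate early genes, which neurons switch on within minutes of activity, spread widely among the 3M samples. Of 24 tested genes 6 fell, 0 rose and 17 lay below 0 (median -0.31), where 0.638% of all tested genes fell. Egr1 was at 116, 110, 141, 284 and 184 CPM at 3M and at 82.3, 96.3, 95.9, 85.7 and 72.7 CPM at 24M (-0.94, SE 0.21, adjusted p = 0.0272, edgeR). Junb was at 36, 38.3, 63.6, 79.6 and 56.2 CPM at 3M and at 33.6, 31.4, 31.6, 35.5 and 31.3 CPM at 24M (-0.74, SE 0.18, adjusted p = 0.0334, edgeR). In both genes 3M replicate 4 was the highest sample and 3M replicates 1 and 2 lay closest to the 24M samples. Arc, a synaptic effector of the same response, was at 64, 68.6, 142, 312 and 155 CPM at 3M and at 58.3, 66.5, 59.1, 70.6 and 52.8 CPM at 24M, so that the groups overlapped (-1.27, SE 0.34, adjusted p = 0.0487, edgeR).

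Calls in this group depended on single libraries. Egr1 was not called without 24M replicate 2 (-0.98) or 6 (-0.89). Junb was not called without 3M replicate 3 or 4 or 24M replicate 2, 3 or 6 (-0.74 to -0.57). Arc was not called without 3M replicate 3 or 4 or 24M replicate 1, 2, 3, 5 or 6 (-1.33 to -0.80). In the list 1 gene fell without 3M replicate 4 or 24M replicate 2, 3 or 6, 3 without 3M replicate 3 and 10 without 3M replicate 2. With the GC offsets 1 fell, and Egr1 was at -0.86 (adjusted p = 0.0541, edgeR), Junb at -0.60 (adjusted p = 0.0851, edgeR) and Arc at -1.17 (adjusted p = 0.0795, edgeR). Summed over the list, 3M replicate 4 held 1310 CPM, the other 3M samples 848 to 1080 CPM and the 24M samples 794 to 841 CPM.

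The cyclic AMP response element, through which activity reaches many of these genes, was searched as TGACGTCA, which reads the same on both strands. It was in 2 of 19 windows (10.5%), those of Btg2 and Maff, and in 2.03% of the windows of all genes. Btg2, an antiproliferative gene, was at 19.5, 19.1, 20.8, 32.2 and 27.7 CPM at 3M and at 16.3, 18.1, 15.3, 16.5 and 16.3 CPM at 24M (-0.53, SE 0.14, adjusted p = 0.0406, edgeR). Its call was lost without 3M replicate 4 or 5 or 24M replicate 2, 3, 5 or 6 (the log2 fold change without each library ran from -0.61 to -0.40). The 250 bases before its start are shown with the motif in capitals, 166 bases before the start (minus strand, chr1:134079156-134079405, GRCm38.p6).
Btg2: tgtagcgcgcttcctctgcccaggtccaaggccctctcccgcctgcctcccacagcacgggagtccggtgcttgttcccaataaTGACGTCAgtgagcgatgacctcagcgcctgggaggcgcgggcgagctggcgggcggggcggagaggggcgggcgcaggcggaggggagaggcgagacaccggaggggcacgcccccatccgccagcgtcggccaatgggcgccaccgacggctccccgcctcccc

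Other genes that fell included receptors and membrane proteins of neurons. Ntsr1, the neurotensin receptor, was at 10.9, 10.9, 8.58, 8.2 and 7.81 CPM at 3M and at 5.42, 5.31, 3.71, 4.86 and 6.34 CPM at 24M (-0.88, SE 0.15, adjusted p = 0.00674, edgeR). Sstr2, a somatostatin receptor, fell by 0.85, and Cckbr, the brain cholecystokinin receptor, by 0.90 (with 24M replicate 2 left out it missed the threshold, at -0.90 with an adjusted p = 0.0532 in edgeR). Hcn4, a pacemaker channel, fell by 1.14 (SE 0.19, adjusted p = 0.0084, edgeR), from 2.12 to 3.18 CPM to 0.86 to 1.64 CPM. Thbs4, a matrix protein, and the cadherin Cdh6 fell by 0.81 and 0.79, and the receptor kinase Ret by 0.94 (not called without 24M replicate 2, -0.92). Among abundant genes Atp2b4, a calcium pump, fell from 199 to 281 CPM to 122 to 180 CPM (-0.58, SE 0.11, adjusted p = 0.0162, edgeR; not called without 24M replicate 2, -0.55).

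In 5 lists of synaptic genes, 1 of 113 (0.885%) was called, against 1.98% of all tested genes. By the adjusted p alone 15 (13.3%) were lower and 2 (1.77%) higher, against 2.37% and 3.21% of all, and with the GC offsets 9 were lower and 0 higher. These 5 lists leave out related neuronal lists that also held calls. Of 24 neuropeptide and interneuron genes 1 rose and 1 fell, and of 37 potassium, calcium, sodium and HCN channel genes 0 rose and 1 fell. The neuropeptide and interneuron gene that rose was not called without 3M replicate 1 or 4 or 24M replicate 1, 2 or 3. With the GC offsets 0 genes of its list rose and 1 fell. Across 24 presynaptic genes the median was -0.06, 14 lay within 0.1 of 0, and Stx1a, a syntaxin of vesicle fusion, was the 1 call (-0.50, SE 0.09, adjusted p = 0.0136, edgeR). Its value lies at the fold threshold, and the call was lost without 3M replicate 1, 2 or 4 or 24M replicate 1 or 3 (-0.50 to -0.43) and with the GC offsets (-0.41). None of 22 glutamate receptor genes, 18 GABA genes, 22 postsynaptic genes or 27 acetylcholine, monoamine, opioid and cannabinoid receptor genes was called by edgeR, with unadjusted p under 0.05 in 10, 7, 10 and 7 of them. DESeq2 called 1 of the 27, as lower, and 0 in the other lists. Below the fold threshold, Dlg4, the scaffold PSD-95, was at 803 to 892 CPM at 3M and 705 to 778 CPM at 24M, lower by 0.20 (adjusted p = 0.022, edgeR), and the kainate receptor gene Grik3 was lower by 0.36 (adjusted p = 0.0115, edgeR). The GABA receptor gene Gabra5 was higher by 0.31 (adjusted p = 0.0321, edgeR) and Gabrd lower by 0.46 (adjusted p = 0.0184, edgeR). With the GC offsets Gabra5 no longer passed (0.27, adjusted p = 0.0547, edgeR).

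Of 18 glucocorticoid response genes 3 rose and 1 fell (median 0.16), where 1.34% and 0.638% of all tested genes did. Plin4, a lipid droplet coat protein, was at 2.23, 2.23, 2.19, 4.43 and 2.17 CPM at 3M and at 6.53, 6.6, 6.96, 7.52 and 6.24 CPM at 24M (1.37, SE 0.19, adjusted p = 0.0023, edgeR). 3M replicate 4 lay between the other 3M samples and the 24M samples. Hif3a, a hypoxia-inducible factor subunit, rose from 2.47 to 4.68 CPM to 5.92 to 9.04 CPM (1.04, SE 0.16, adjusted p = 0.00494, edgeR), and both genes kept their calls without each library and with the GC offsets. Sgk1, a hormone-regulated kinase, rose by 0.55 and Angptl4, a lipase inhibitor, fell by 0.90. Their calls were lost in 7 and 5 of the fits that left out a library, and in both genes leaving out any of 3M replicates 1, 2 and 3 or 24M replicates 2 and 3 did so.

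Of 21 clock genes 8 passed the adjusted p and 2 rose past the fold threshold, where with the GC offsets 4 rose and 1 fell. Of all tested genes 3.21% passed the adjusted p as higher, 2.37% passed as lower and 1.34% rose past the fold threshold. Ciart, a repressor of the clock, was at 6.18, 6.65, 5.58, 6.22 and 5.14 CPM at 3M and at 8.2 to 10.8 CPM at 24M (0.71, SE 0.10, adjusted p = 0.00339, edgeR), with the call kept without each library and with the GC offsets. Nr1d2, the nuclear receptor REV-ERB beta, rose by 0.53 but fell short of the call without 3M replicate 1 or 3 or 24M replicate 2 (0.48 to 0.49) and with the GC offsets (0.39). The time of day of dissection is not in the labels.

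Of 45 splicing factor and splicing kinase genes 38 lay above 0 (median 0.17), 14 passed the adjusted p as higher, and 5 rose past the fold threshold. The shares of all tested genes were 3.21% and 1.34%. Luc7l2, a partner of the U1 particle, was at 87, 107, 77.7, 92.2 and 119 CPM at 3M and at 132, 146, 204, 126 and 137 CPM at 24M (0.63, SE 0.14, adjusted p = 0.0226, edgeR). 24M replicate 3, the sample with the steepest GC slope, was the highest. The median GC content of the list was 42.9%, against 49.8% over all tested genes. With the GC offsets 0 genes of the list were called, 8 passed the adjusted p as higher and the median was 0.07. The call count was 0 without 24M replicate 2, 1 without 24M replicate 3, 2 without 3M replicate 1, 3 or 4, 3 without 3M replicate 2 and 9 without 3M replicate 5.

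In the lists of core cell functions that follow, from oxidative phosphorylation to cholesterol genes, 1 gene was called, where 1.98% of all tested genes were. The splicing and lysosome lists given above, with 5 calls and 1 call, are not among them. Of 80 nuclear-encoded oxidative phosphorylation genes 56 lay within 0.1 of 0 (median -0.05, 4 with an unadjusted p under 0.05). Cox8b, a subunit best known from muscle, was the 1 call (1.06, SE 0.23, adjusted p = 0.022, edgeR; not without 24M replicate 2, 0.91). None of 79 ribosomal protein, 37 proteasome, 19 heat shock, 18 endoplasmic reticulum chaperone, 26 antioxidant or 26 cholesterol genes was called by edgeR, with unadjusted p under 0.05 in 8, 4, 9, 6, 8 and 8 of them, and none was called by DESeq2. Vessel genes were mixed, since 20 of 25 endothelial and pericyte genes lay above 0 (median 0.18) while Cldn5, a tight junction protein of the blood-brain barrier, fell by 0.60 (SE 0.13, adjusted p = 0.0242, edgeR). It was at 25.3 to 45.9 CPM at 3M and at 19.2 to 24.2 CPM at 24M, and was not called without 3M replicate 1 (-0.47) or 24M replicate 2 (-0.61) or 3 (-0.56), nor with the GC offsets (-0.48).

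Adhesion molecules of the protocadherin beta cluster were among the calls. Pcdhb9 was at 12.1 to 16.2 CPM at 3M and 27.8 to 31.5 CPM at 24M (1.04, SE 0.08, adjusted p = 2.98e-05, edgeR), and Pcdhb2 rose by as much (1.04, SE 0.13). Of 24 tested clustered protocadherins, a group looked up after these values had been seen, 8 rose, 0 fell and 21 lay above 0 (median 0.36). The GC offsets left 7 that rose and 0 that fell (median 0.30). All that rose without the offsets were genes of the beta cluster, to which nearly all of the 24 tested genes belong. Only Pcdha11 and Pcdhgc4 were tested from the alpha and gamma clusters. They were at 0.0 and -0.12 and were not called, so the clusters cannot be compared here. Clustered protocadherin genes are near copies of each other and can share reads. Neat1, a nuclear noncoding RNA of paraspeckles, rose by 0.82 (51.6 to 93.8 CPM at 3M, 111 to 170 CPM at 24M), in every fit that left out a library and with the GC offsets.

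The tissue label was checked against marker genes. The summed level of 20 hippocampal subfield genes was 1500 to 1690 CPM at 3M and 1530 to 1600 CPM at 24M, and their median log2 fold change was 0.00. None was called by edgeR or DESeq2, and 5 had an unadjusted p under 0.05 in edgeR. Neighbouring tissue was uneven. Striatum genes summed to 1160 CPM in 3M replicate 4, 552 to 605 CPM in the other 3M samples and 542 to 581 CPM at 24M. Their median log2 fold change was -0.43, or 0.01 without that replicate. It was also highest for neocortex genes (695 CPM, where the other samples had 522 to 631 CPM), among which Cux2 fell by 0.53 and Lamp5 by 0.65. Both calls were lost without 3M replicate 1, 2 or 4 or 24M replicate 2 or 3 and with the GC offsets (-0.45 and -0.63), and that of Lamp5 also without 24M replicate 1, 5 or 6. Choroid plexus genes ranged from 2200 to 9140 CPM at 3M and from 5000 to 8290 CPM at 24M. All 12 meningeal fibroblast genes lay above 0 (median 0.57), and Ogn and Lum, proteoglycans of connective tissue, rose by 0.96 and 0.85. Neither was called without 3M replicate 1 (0.85 and 0.80), 24M replicate 2 (0.91 and 0.73) or with the GC offsets (0.69 and 0.71), and Lum was also not called without 3M replicate 4 (0.75) or 24M replicate 5 (0.79) or 6 (0.83). Without 24M replicate 3, in which the list was lowest of the 24M samples, 6 genes were called. The pituitary hormone gene Gh was at 64.6 CPM in 3M replicate 1, 0.0706 to 2.67 CPM in the other 3M samples and 5.84 to 39.1 CPM at 24M. The part of neighbouring tissue in the results above was not tested beyond these fits.

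**Figure D5:**
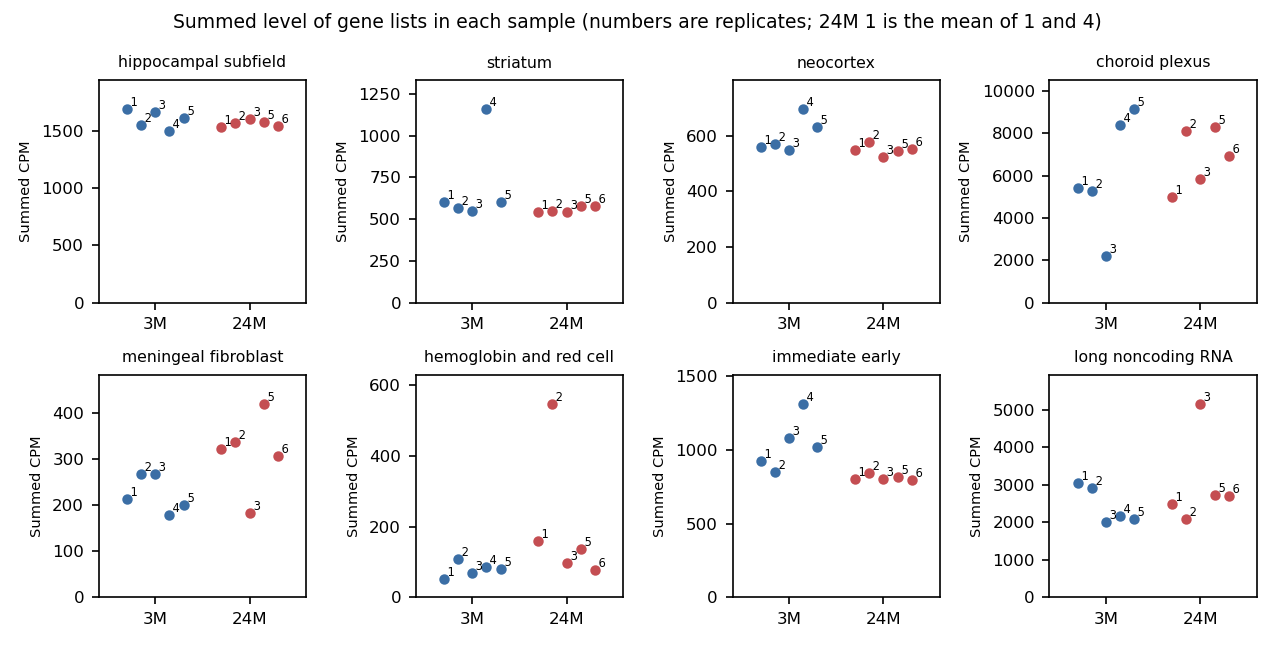
Summed CPM of 8 gene lists in each sample (points numbered by replicate, blue for 3M and red for 24M), on linear axes from 0. Hippocampal subfield genes are even (1500 to 1690 CPM), while 3M replicate 4 stands out for striatum genes (1160 CPM), 24M replicate 2 for hemoglobin and red cell genes (547 CPM) and 24M replicate 3 for long noncoding RNAs (5160 CPM).

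The 29-month (29M) libraries of the series, set against their own 3M paired-end libraries, share no sample with this comparison. Of the genes that rose at 24M 195 were tested at 29M, 182 lay in the same direction and 85 were called higher, where 202 of 15097 genes (1.34%) were called higher in all. Their median log2 fold change was 0.76 at 24M and 0.64 at 29M. Of the genes that fell 90 were tested, 74 lay in the same direction and 8 were called lower, where 17 genes (0.113%) were in all, and the medians were -0.70 and -0.26. Gpr17 was at -0.95 (adjusted p = 2.79e-05, edgeR), Igfbpl1 at -2.76 (adjusted p = 0.00181, edgeR) and Gfap at 0.80 (adjusted p = 7.42e-07, edgeR) at 29M.

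The lists differed in their values at the later age. Class I genes had 11 of 18 calls at 29M (median 0.72) and interferon-stimulated genes 23 of 33 (median 0.88), while immediate early genes had 0 (median 0.08) and splicing genes 0 (median 0.02). The 24M values of these lists moved with single libraries. Class I genes had 1 call at 24M (median 0.33), but 9 (median 0.67) without 3M replicate 2. Interferon-stimulated genes had 14 (median 0.71) without 3M replicate 2 and 5 (median 0.37) without 24M replicate 2. Thbs4 was at 0.04 at 29M and -0.81 at 24M, a difference of 0.85 (adjusted p = 0.392, edgeR). The difference between the effects at 29M and 24M was tested for 16055 genes in edgeR and 0 passed the adjusted p, with 1674 at an unadjusted p under 0.05. Age and library type cannot be told apart in it.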

How the data were processed

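RNA of whole mouse hippocampus was prepared with a polyA kit that does not mark strand, so genes that overlap or lie antisense to each other cannot be told apart. The authors aligned the single-end reads with STAR (2.3.0) to GRCm38.p2 and deposited raw counts per gene made with HTSeq. The release of the annotation was not given in the sources used here. The files also hold lines for reads given to no gene, such as ambiguous or multiply aligned reads (33.41 to 40.35% of the total in each single-end library), which were left out. Counts of 24M replicates 1 and 4 were averaged and rounded. Genes were filtered with filterByExpr, scaled by TMM and tested in edgeR (4.0.16, R 4.3.3) by its quasi-likelihood test. P-values were adjusted by Benjamini-Hochberg, and the SE is the log2 fold change divided by the square root of F. The test was first tried on simulated data with known changes. DESeq2 (1.42.0), other filters and normalizations, thinning, leaving out each library and, chosen after seeing the data, loess offsets (span 0.3) for transcript GC content and length were alternatives. Named genes were the 12 largest changes each way among called, non-overlapping genes of at least 5 CPM, the 5 most abundant called genes each way, and up to 4 called members of each of 53 gene lists (or up to 2 members with the smallest p where none was called), and a gene that this rule picks is not reported here. Other list members and the clustered protocadherins were named after their values were seen. The gene lists and members were chosen with earlier results of these data known. Mitochondrially encoded genes were not analysed here. Between 9213474 and 28438296 counts per library set the precision, and genes with few counts were not tested.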

Additional observations from a re-analysis of the deposited data

Results flagged for a closer look

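In groups of 5 samples, a highest or lowest sample was singled out when its gap to the nearest other sample exceeded 0.710 of the group's range. This held in 17 of 364 groups compared, where chance at 1 in 20 gives 18.2. The 3M replicate 4 was involved in 5 of them, 24M replicate 3 in 4 and 24M replicate 2 in 3. The values that follow are the gap divided by the range, both in log2 CPM. For a gene list, the mean log2 CPM of its tested genes was used, not the summed level.

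3M replicate 4 was high for Ngef (0.766; its log2 fold change was -0.52, and -0.45 with the GC offsets, below the fold threshold), for Plin4 (0.962), for the striatal gene Rgs9 (0.816), for the mean of the striatum genes (0.846) and for the mean of the endoplasmic reticulum chaperone genes (0.733). 24M replicate 3 was low for Adra2a (0.918), Stx1a (0.871) and Baiap3 (0.823) and high for the mean of the long noncoding RNAs (0.755). 24M replicate 2 was low for Sgk1 (0.743), Irs1 (0.952) and the mean of the presynaptic genes (0.783). 3M replicate 2 was high for the means of the MHC class I (0.861) and class II genes (0.774). Of the remaining ones, 24M replicate 5 was low for Il33 (0.791), 3M replicate 3 low for Igkc (0.772) and 3M replicate 1 high for the pituitary hormone gene Prl (0.786). No explanation of these was tested.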

How the results depend on the processing

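Leaving out 1 library gave 91 to 394 genes called higher and 28 to 174 called lower, with the lowest counts without 24M replicate 2 and the highest without 3M replicate 5. With 24M replicates 1 and 4 both left out, 112 and 51 were called, with all 4 groups in 1 fit 345 and 173, and with no fold threshold 504 and 371. DESeq2 in place of edgeR gave 246 and 123, no filter on low counts 265 and 133, and replicates 1 and 4 kept apart 313 and 150. The share of calls that were higher was 67.7%. Over the alternatives that kept the fold threshold it ran from 59.5% without 3M replicate 3 to 78.3% without 24M replicate 3. With samples thinned to 1 total it was 62.0%. Same-numbered samples did not deviate together (correlations of -0.137 to 0.053). These correlations gave no sign that the numbers pair the samples, but they cannot exclude it. With the number as a replicate block, 58 genes were called higher and 25 lower.

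Among the named genes 52 were called higher and 32 lower. In each of the 11 fits that left out 1 library, 30 and 12 of them kept the call, and with the GC and length offsets 40 and 18 did. Without 24M replicate 2, 40 of them were not called. The 1 reversal was Prl, -0.57 with all samples, -0.92 without 3M replicate 3 and 4.44 without 3M replicate 1, the library with the most pituitary hormone RNA. The causes of these changes were not tested. Depth limits genes of few counts, and the smallest library held 9213474 counts.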
